A study of Ovis aries with 95 samples.

Results

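Gene expression in the ovine fetal cortex was compared between 130 d and 145 d of gestation, over the last 2 fetal ages of a series that follows the sheep brain to the first day after birth. All arrays labelled cortex at these ages were taken, 4 at 130 d and 4 at 145 d, out of 95 arrays in the series and 24 from cortex. The other cortex arrays came from fetuses at 80, 100 and 120 d and from lambs 1 d after birth, with 4 arrays at each age, and brainstem, hippocampus and hypothalamus of the same ages were also measured. Each array carried Cy3-labeled RNA of 1 cortex sample in a single color, so the values are levels and not ratios. By the study's methods the tissue was a piece of frontal cortex, no ewe had signs of oncoming labor, and the fetuses labelled 145 d were collected slightly before that day. The labels and methods name no treatment, genotype or agent for either age. Neither strain nor sex is given in the labels. Each group held 1 set of twins by the methods, which the labels do not mark. The arrays were treated as independent although twins share a ewe, so p-values may be too small. The p-values rest on the spread within groups, pooled over all arrays of a fit.

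In late gestation the cerebral cortex of the sheep, a species whose brain matures largely before birth, passes from the production of cells to their maturation. Astrocytes take up the transmitter glutamate from synapses, oligodendrocytes begin to wrap axons in myelin, and blood vessels grow with the demand for oxygen and glucose. Dividing cells make many ribosomes, and the production of ribosomal proteins is known to decline as neural cells leave the cell cycle.

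The array carries 15208 spots for ovine genes, as probes of 60 bases, and the deposited files give no genome position for them. The probes of the named genes that passed the test between 130 d and 145 d are shown with those of 4 transcripts known only by an accession, because they are the sequences on which the called changes were read. Capitals mark the 58 bases that the pair of probes designed on the EAAT2 record of SLC1A2 share.

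SLC1A2, EAAT2 probe 1: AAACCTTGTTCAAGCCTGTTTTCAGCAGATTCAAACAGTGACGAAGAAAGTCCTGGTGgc
SLC1A2, EAAT2 probe 2: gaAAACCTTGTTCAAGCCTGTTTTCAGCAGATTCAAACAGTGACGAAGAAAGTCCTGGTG
SLC1A2, GLT-1 probe: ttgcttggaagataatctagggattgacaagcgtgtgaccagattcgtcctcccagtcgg
CD93: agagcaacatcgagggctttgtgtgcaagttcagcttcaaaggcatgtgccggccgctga
YBX1, probe 1: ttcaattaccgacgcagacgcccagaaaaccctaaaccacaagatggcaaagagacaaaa
YBX1, probe 2: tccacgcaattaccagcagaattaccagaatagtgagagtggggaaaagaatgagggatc
RACK1: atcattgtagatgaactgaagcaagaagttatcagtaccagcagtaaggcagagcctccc
EE858717: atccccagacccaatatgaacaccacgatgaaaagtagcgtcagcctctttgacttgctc
FE022039: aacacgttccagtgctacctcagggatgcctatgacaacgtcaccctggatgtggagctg
EE828192: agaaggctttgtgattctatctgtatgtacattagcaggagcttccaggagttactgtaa
EE863725: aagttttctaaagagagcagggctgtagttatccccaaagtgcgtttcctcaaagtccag

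A level is the log2 of the background-corrected, quantile-normalized intensity, and a change is the level at 145 d minus that at 130 d, with its standard error (SE) from a limma fit over the 24 cortex arrays. Between the ages, 22 of 12697 genes passed at an adjusted p under 0.05, 6 higher and 16 lower at 145 d, which is 0.0473% and 0.126% of the genes tested. An unadjusted p under 0.05 was seen for 532 genes higher and 626 genes lower, and the median change of all genes was 0.00028. The called changes ran from 0.42 to 1.15 upward and from -0.41 to -1.32 downward, and in each of the 22 genes the arrays of the 2 ages did not overlap. Over all genes, every array at 145 d lay above every array at 130 d in 2.76% of genes, and below in 3.43%. Only 874 of the genes tested have a symbol, and 4 of them were called: SLC1A2 rose, and CD93, YBX1 and RACK1 fell. Without 130 d replicate 1, 130 d replicate 2, 145 d replicate 1 or 145 d replicate 2, the number called was 11, 13, 14 and 13. With the scanner software's processed signal in place of the quantile-normalized values it was 5, all lower at 145 d.

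**Figure D1:**
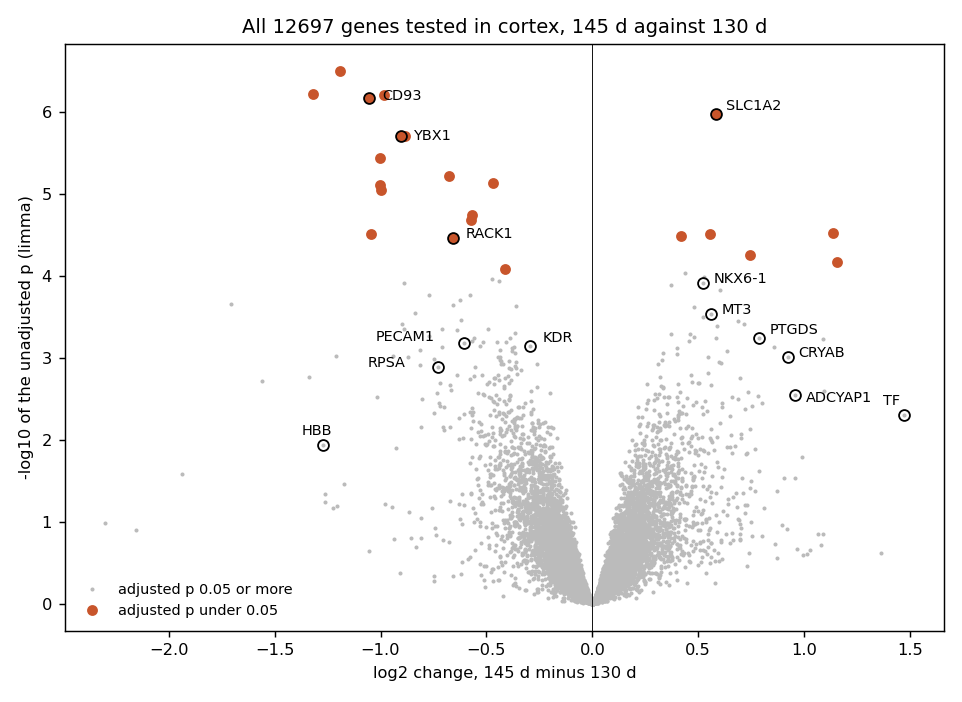
Each point is 1 of the 12697 genes tested in cortex. The x axis is the log2 change from 130 d to 145 d and the y axis is -log10 of the unadjusted p from limma. Orange points passed at an adjusted p under 0.05, 6 to the right of 0 and 16 to the left. Circles mark genes named in the text. TF lies farthest right at 1.47 without passing.

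The arrays lay on 3 slides of 8 arrays, read on the same scan day. Slide 1 held 130 d replicates 1 and 2 and 145 d replicate 1, slide 2 held 130 d replicate 3 and 145 d replicate 2, and slide 3 held 130 d replicate 4 and 145 d replicates 3 and 4. After the mean of each age was removed, arrays of different ages on the same slide correlated at 0.147 to 0.452 over genes, and those on different slides at -0.557 to 0.157. With the slide as a block in the fit, 46 genes passed, 17 higher and 29 lower, and they included all 22. Differences within single slides are given for some genes as values with no test. Where the ages did not overlap, their sign on each slide follows from that. Between 75.9 and 83.3% of the gene spots on these 8 arrays were well above background.

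Whether the tissue is cortex could not be checked against cortical markers, since none of 12 listed markers had a probe that could be named here, and of 44 neuronal genes only NEFH, a neurofilament subunit, had one. Of hormone genes that mark the hypothalamus or pituitary, AGRP and GHRH were well above background on 0 of the 8 arrays, PMCH on 7, and OXT, POMC and PRL on all 8. TTR, the thyroid hormone carrier made by the choroid plexus, ranged from 8.26 to 15.39 over the 8 arrays, so samples of the same age differed widely in it.

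SLC1A2, the main glutamate transporter of astrocytes, rose toward term. Its level at 130 d was 7.89, 8.0, 7.71 and 7.98 in replicates 1 to 4, and at 145 d it was 8.50, 8.38, 8.63 and 8.41. All 4 arrays at 145 d were above all 4 at 130 d. The change was 0.58 (SE 0.086), 1.5-fold, with an adjusted p of 0.0027. Within slides 1, 2 and 3 the difference was 0.56, 0.67 and 0.54. The value is the mean of 3 probes that did not move alike. The 2 overlapping EAAT2 probes rose by 0.84 and 0.94, each with an adjusted p of 0.0014 over probes. The GLT-1 probe, dim and well above background on only 3 of 4 arrays at each age, differed by -0.039. With the processed signal the change of the gene was 0.65 with an adjusted p of 0.458, and in a fit of the 8 arrays alone the adjusted p was 0.055. Counting its single probes, the gene passed under 21 of 25 settings.

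**Figure D2:**
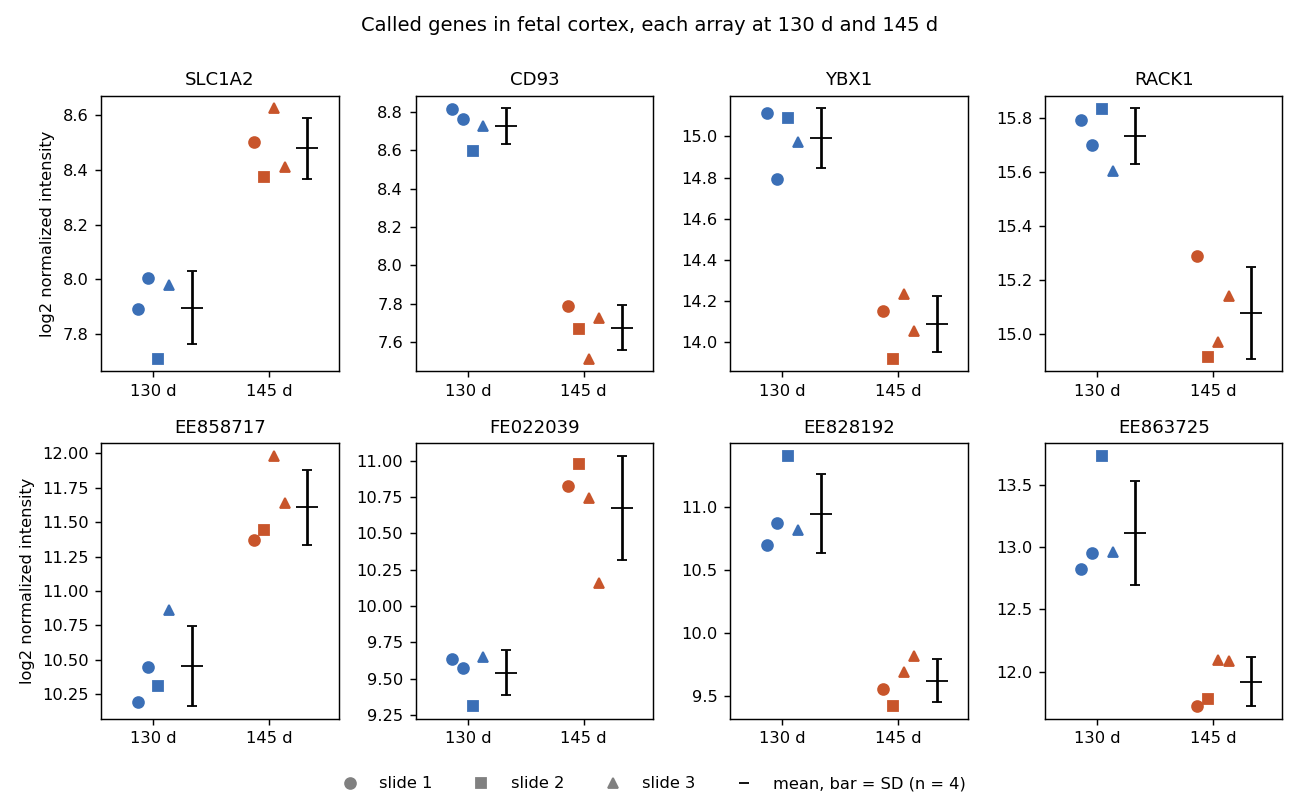
Log2 normalized intensity of the 4 called genes with a symbol and of the 2 largest rises and 2 largest falls among genes known only by an accession, for each array at 130 d (blue) and 145 d (orange). Symbols give the slide, and the black bar is the mean with its SD (n = 4). The ages do not overlap in any of the 8 panels. In EE863725, 130 d replicate 3 lies at 13.73, above the next array at 12.96.

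Among astrocyte genes, 9 were tested and 1, SLC1A2, was called, with 6 above 0 and a median change of 0.15, against 0.00028 over all genes. MT3, the brain metallothionein that binds zinc, had levels of 15.33, 15.58, 15.16 and 15.56 at 130 d and of 15.87, 15.85, 16.18 and 15.98 at 145 d. These arrays did not overlap, and the change was 0.56 (SE 0.13) with an adjusted p of 0.094. GJA1, the gap junction protein connexin 43, changed by 0.42 with an adjusted p of 0.27, and its 4 probes by 0.37 to 0.51. GFAP, the intermediate filament of astrocytes, changed by 0.40 with an adjusted p of 0.52. AQP4, FGFR3 and the less specific VIM had changes of -0.085, -0.11 and -0.094, so members lay on both sides of 0. When single arrays were left out the median of the list ran from 0.057 without 145 d replicate 4 to 0.29 without 145 d replicate 2, and it was 0.23, 0.24 and 0.27 without 130 d replicate 2, 130 d replicate 4 and 145 d replicate 3. The summed level of the 9 genes was 16.91 to 17.09 at 130 d and 17.11 to 17.36 at 145 d on the log2 scale. Intensities were added, so the bright genes MT3, AQP4 and VIM weigh most in the sum and SLC1A2 weighs little. The sum therefore does not show a rise across the list. In bulk tissue, more cells of a type and more RNA per cell cannot be told apart.

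Of the oligodendrocyte and myelin genes 5 were tested and none was called, with an unadjusted p under 0.05 for 3 of them, all higher at 145 d. For the structural myelin genes, MBP among them, no probe could be named through the files' gene names or the RefSeq table, so they were not analysed here. TF, the iron carrier transferrin, which oligodendrocytes make in the brain, had the largest positive change of all genes tested. Its levels were 13.61, 13.88, 13.09 and 14.64 at 130 d and 15.21, 15.15, 15.26 and 15.49 at 145 d. The 145 d arrays were all above the others and close together, while those at 130 d were spread over a wide range. Its change of 1.47 (SE 0.47), 2.78-fold, had an adjusted p of 0.27. CRYAB, a small heat shock protein of glia, had levels of 10.68, 11.12, 10.74 and 11.50 at 130 d and of 11.64, 11.62, 12.10 and 12.38 at 145 d. It too had no overlap, with a change of 0.92 (SE 0.24) and an adjusted p of 0.14. GJB1, the connexin 32 of myelin, changed by 0.29 with an adjusted p of 0.30 and no overlap. CD9 and NKX2-2 had changes of -0.19 and -0.097. The median change of the 5 genes was 0.29, or 0.57 with the processed signal.

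CD93, a lectin-like receptor on the surface of endothelial cells, fell between the ages. It had levels of 8.82, 8.76, 8.60 and 8.73 at 130 d and of 7.79, 7.67, 7.51 and 7.73 at 145 d. The gap between the groups was several times their spread, and the change of -1.05 (SE 0.15), 2.07-fold, had an adjusted p of 0.0022. Within the slides the differences were -1.0, -0.93 and -1.11. With the processed signal the change was -1.65 with an adjusted p of 0.038. Without the 3 arrays of slide 3, which leaves 3 arrays against 2, it was -1.0 with an adjusted p of 0.072.

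CD93 was in none of the lists. Of the 18 endothelial and blood brain barrier genes tested none was called, 12 were lower and 6 higher at 145 d, and the median change was -0.097, or -0.13 with the slide as a block. With the processed signal the median was -0.25, with 13 lower and 5 higher, and with a normexp offset of 16 it was -0.16. In 5 of the 18 every array at 145 d was below every array at 130 d, against 3.43% of all genes. PECAM1, the adhesion molecule at endothelial junctions, had levels of 10.07, 10.34, 10.26 and 9.84 at 130 d and of 9.47, 9.46, 9.62 and 9.55 at 145 d. The change was -0.60 (SE 0.15) with an adjusted p of 0.13. KDR, the main receptor for vascular endothelial growth factor, was lower in all 4 of its probes, by -0.15 to -0.43. Its probes on the VEGFR-2 record, at -0.22 and -0.15, were dim and well above background on only 2 and 3 of 4 arrays at 145 d. The mean change of KDR, -0.29, had an adjusted p of 0.13, or 0.045 with the slide as a block. SLC7A5, which carries large amino acids across the blood brain barrier, had a change of -0.44 with an adjusted p of 0.18. The angiopoietin receptors TEK and TIE1 had changes of -0.17 and -0.18, with adjusted p-values of 0.51 and 0.58, and no overlap. FLT1, TJP1 and OCLN lay between 0.0068 and 0.038, and EDN1 and ABCB1 at 0.22 and 0.19. The summed level of the list was 13.48 to 13.56 at 130 d and 13.13 to 13.56 at 145 d, so the groups overlapped in the sum.

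Markers of red cells were set beside these genes. Of 4 erythroid genes tested none was called, and their median change was -0.21, or -0.48 with the processed signal, -0.12 without 130 d replicate 1 and -0.13 without 145 d replicate 3. HBB, the beta globin of hemoglobin, had a change of -1.27 (SE 0.46) with an adjusted p of 0.36, and its 2 probes disagreed. The probe on the reference mRNA had levels of 13.97, 14.57, 14.70 and 14.60 at 130 d and of 12.95, 11.20, 12.62 and 12.37 at 145 d. It alone changed by -2.17, with an adjusted p of 0.020 over probes, and its groups did not overlap. The probe on a cDNA clone ranged from 9.52 to 13.75 at 130 d and from 10.91 to 12.33 at 145 d, with a change of -0.37. Genes of the beta globin family are alike in sequence, so which of them each probe reads is uncertain. The summed erythroid level was 12.15 to 14.25 at 130 d and 11.29 to 12.72 at 145 d, and its part in the lower vascular values was not tested.

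YBX1, a cold-shock domain protein that binds mRNA and governs its translation, fell between the ages. It had levels of 15.11, 14.79, 15.09 and 14.97 at 130 d and of 14.15, 13.92, 14.24 and 14.05 at 145 d. No array at 145 d reached the lowest one at 130 d, and the change of -0.90 (SE 0.14), 1.87-fold, had an adjusted p of 0.0035. Its 2 probes gave -0.81 and -0.99. Within the slides the differences were -0.81, -1.17 and -0.83. With the processed signal the change was -0.77 with an adjusted p of 0.064.

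RACK1, a scaffold protein on the small ribosomal subunit, also fell. It had levels of 15.79, 15.70, 15.84 and 15.60 at 130 d and of 15.29, 14.91, 14.97 and 15.14 at 145 d. The ages were apart by more than the spread within them, and the change was -0.66 (SE 0.13), 1.58-fold, with an adjusted p of 0.023. The call was lost without 130 d replicate 1, 2 or 3 or without 145 d replicate 2 or 3, where the adjusted p was 0.105, 0.071, 0.107, 0.107 and 0.091, while over the 8 fits that left out 1 array the change was between -0.60 and -0.73. Without the 3 arrays of slide 3 it was -0.68 with an adjusted p of 0.169. Within slides 1, 2 and 3 the difference was -0.46, -0.92 and -0.55. With the processed signal it was -0.47 with an adjusted p of 0.40.

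The 20 genes of the ribosome and translation list that were tested were 17 lower and 3 higher at 145 d, with a median change of -0.19 and none called. An unadjusted p under 0.05 was seen for 8 of them, all lower, and in 6 every array at 145 d was below every array at 130 d, against 3.43% of all genes. RPSA, a protein of the small subunit that also acts as a laminin receptor, had levels of 14.44, 14.45, 14.71 and 13.97 at 130 d and of 13.996, 13.68, 13.40 and 13.59 at 145 d. The lowest 130 d array was below the highest one at 145 d, and the change of -0.73 (SE 0.20) had an adjusted p of 0.16. RPL10 of the large subunit had a change of -0.51 with an adjusted p of 0.23, and RPS20 and RPS6 had changes of -0.35 and -0.34 with adjusted p-values of 0.25 and 0.28. These 3 and RPL4, RPS2 and RPL14 were the members without overlap. The elongation factor EEF1A1 and the growth-related TPT1 had changes of 0.17 and 0.018.

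The ribosomal values moved with slide and scaling. The list's median difference was -0.17 within slide 1 and -0.23 within slide 2, but -0.0044 within slide 3. Its median change with the processed signal was -0.0023, with 11 members lower and 9 higher. Of the 20 members 16 were among the 1270 brightest genes, whose median change was -0.010 with the quantile-normalized values and 0.097 with the processed signal. Ribosomal protein genes have many processed copies in mammalian genomes, and probes may read more than 1 of them.

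**Figure D3:**
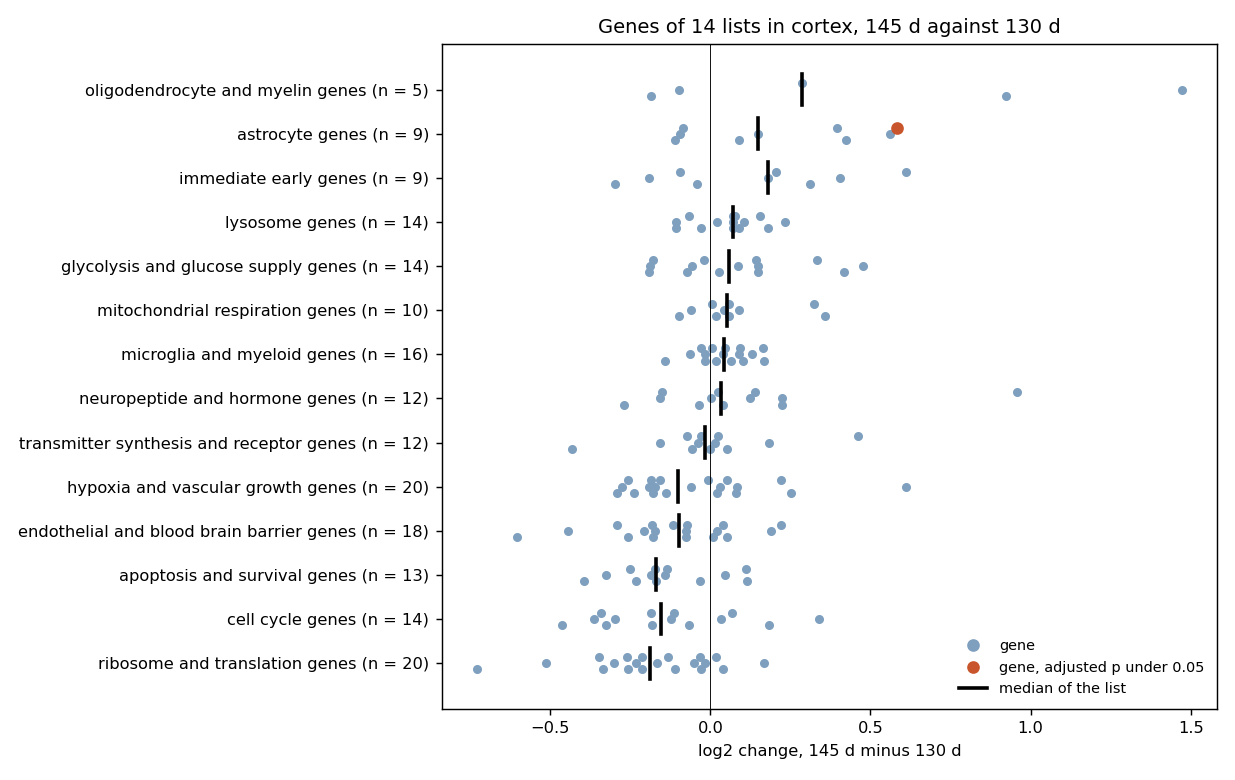
Log2 change from 130 d to 145 d of every gene tested in 14 gene lists, with the number of genes in each. Blue points did not pass, the orange point is SLC1A2, and the black bar is the median of the list. The medians of the lists drawn run from -0.19 for ribosome and translation genes to 0.29 for oligodendrocyte and myelin genes.

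Of 14 cell cycle genes tested none was called, 10 were lower and 4 higher, and the median change was -0.15, or -0.26 with the processed signal and -0.10 without 145 d replicate 1. CCNA2, the cyclin of the DNA synthesis phase, had levels of 7.54, 7.76, 7.64 and 7.74 at 130 d and of 7.07, 7.0, 7.41 and 7.35 at 145 d. Its change of -0.46 had an adjusted p of 0.24, with no overlap. CDK1, which drives entry into mitosis, and LMNB1, a protein of the nuclear lamina, had changes of -0.36 and -0.34 with adjusted p-values of 0.28 and 0.51. CENPB, which binds centromeres, had a change of -0.37 with an adjusted p of 0.14, or 0.025 with the slide as a block. ASPM, a spindle protein needed for the division of cortical progenitors, had a change of -0.35 with an adjusted p of 0.18. CCND2 lay in the other direction at 0.34, with an adjusted p of 0.74.

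NKX6-1, a homeobox transcription factor, was just outside the threshold. It had levels of 7.31, 7.42, 7.36 and 7.37 at 130 d and of 7.84, 7.75, 8.02 and 7.94 at 145 d. The groups were narrow and far apart, and the change of 0.52 (SE 0.11) had an adjusted p of 0.055, or 0.036 with the slide as a block. The last gene inside the threshold had an adjusted p of 0.048 and the first one outside 0.051. It is 1 of 5 genes tested in the list of progenitor and immature neuron genes, in which YBX1 was called lower, at -0.90. The other members PAX6, NEUROD1 and VIM had changes of -0.084, -0.11 and -0.094.

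Receptors and signaling genes gave single members rather than whole lists. OPRK1, the kappa opioid receptor, had levels of 7.72, 7.91, 7.83 and 8.15 at 130 d and of 8.33, 8.15, 8.49 and 8.49 at 145 d. The ages met at 130 d replicate 4 and 145 d replicate 2, and the change was 0.46 (SE 0.11) with an adjusted p of 0.12, or 0.047 with the slide as a block. The median over the 12 transmitter genes was -0.016, with no other member at an unadjusted p under 0.05. The AMPA receptor subunits GRIA1, GRIA2, GRIA3 and GRIA4 had changes of -0.43, 0.18, -0.16 and -0.038, with adjusted p-values from 0.80 to 0.94. ADCYAP1, the neuropeptide PACAP, had levels of 11.96, 12.20, 11.50 and 12.11 at 130 d and of 12.35, 12.98, 13.58 and 12.69 at 145 d, and its change of 0.96 had an adjusted p of 0.23. It had already been 1.87 higher at 130 d than at 120 d, with an adjusted p of 0.0046. NPY, a peptide of cortical interneurons, had a change of -0.27 with an adjusted p of 0.54, and OXT, the hypothalamic hormone oxytocin, of 0.22 with an adjusted p of 0.53.

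Of 15 fatty acid and sterol genes tested none was called, with 7 higher and 8 lower. PTGDS, which makes prostaglandin D2 in glia, meninges and choroid plexus, had levels of 15.72, 15.69, 15.32 and 15.44 at 130 d and of 16.62, 16.61, 15.98 and 16.12 at 145 d. Its change of 0.79 (SE 0.19) had an adjusted p of 0.13. TTR was 11.60, 14.72, 10.24 and 9.84 on the same arrays at 130 d and 15.39, 10.85, 10.21 and 8.26 at 145 d, and of the 5 choroid plexus genes tested PTGDS alone had groups that did not overlap. None of the 5 was called, 4 were higher, and their median change was 0.54, which ran from 0.14 without 145 d replicate 2 to 0.84 without 130 d replicate 1 and was 0.31 without 130 d replicate 4. IGFBP2, a carrier of insulin-like growth factors, had a change of 0.65 with an adjusted p of 0.27. LCAT, which esterifies cholesterol on lipoproteins, had levels of 9.70, 9.30 and 9.63 in 130 d replicates 1, 3 and 4, replicate 2 being left out as an outlier spot, and of 10.65, 10.59, 10.33 and 10.03 at 145 d. Its change of 0.86 (SE 0.22) had an adjusted p of 0.13. PTGS2, the inducible cyclooxygenase, had a change of 0.61 with an adjusted p of 0.24, but its 2 probes gave 1.09 and 0.13, the second one near background. FABP5, a fatty acid carrier of immature neural cells, had a change of -0.54 with an adjusted p of 0.48.

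Among the remaining genes of lowest p, NFKBIA, the inhibitor of NF-kB, changed by 0.70 with an adjusted p of 0.19, TGFBR3, a co-receptor of the TGF-beta family, by 0.33 with one of 0.15, and the probe that the files name CAMK2, a calmodulin-dependent kinase, by 0.50 with one of 0.20. CD247, a signaling chain of the T cell receptor, had a change of -0.39 with an adjusted p of 0.15, and 145 d replicate 3 lay apart from the other 145 d arrays.

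**Figure D4:**
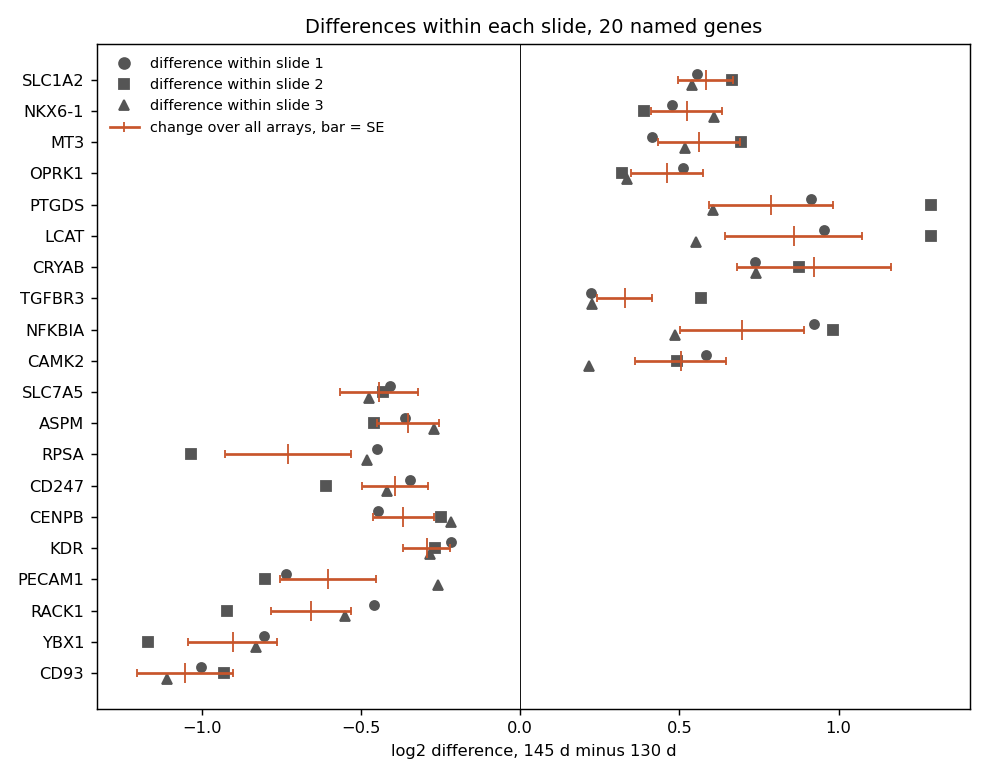
Log2 difference of 145 d minus 130 d within each of 3 slides (grey symbols) and over all arrays (orange tick, bar = SE) for the 10 genes with a symbol of lowest p in each direction. The genes were chosen by p over the same arrays, so the shared sign of the symbols is no support of its own. The size varies between slides, as in PTGDS with 0.91, 1.29 and 0.61 on slides 1, 2 and 3.

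The study followed immune genes, and those tested here gave no call between 130 d and 145 d. In the list of 23 genes that the study names, only 11 had a probe that could be named, and these 11 were tested. Of 16 microglia and myeloid genes tested none had an unadjusted p under 0.05, and their changes lay between -0.14 and 0.17, with a median of 0.042. CD1D, which presents lipids to T cells, had a change of 0.16 (SE 0.12) with an adjusted p of 0.73. The changes of ITGAM, a subunit of a complement receptor, CD81, a tetraspanin, and FCGR2B, an inhibitory antibody receptor, were 0.040, 0.029 and 0.016, with SEs of 0.10, 0.13 and 0.059. IL10, an anti-inflammatory cytokine, had a change of 0.15 and TGFB1 of -0.25, with adjusted p-values of 0.74 and 0.44. For both, the study reports a rise in cortex over fetal age, by array and by qRT-PCR. Its statement covers the whole course of ages, so the change over this interval alone does not test it. In the list of 22 cytokine and chemokine genes none was called, and CSF3, not well above background on any array at 145 d, had a change of -0.22. IFNAR2, a chain of the interferon receptor, had a change of -0.26 with an adjusted p of 0.55, and 8 of the 10 antigen presentation and interferon genes were lower.

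Genes of glucocorticoid signaling were looked at because fetal cortisol rises before birth in sheep. Of 9 tested none was called, and the median change was 0.0022. The glucocorticoid receptor NR3C1 had a change of -0.055 with an adjusted p of 0.90. HSD11B1, which regenerates active cortisol in the cell, had levels of 8.49, 8.24, 8.21 and 7.96 at 130 d and of 7.66, 7.4, 7.84 and 8.07 at 145 d. Its change of -0.48 (SE 0.15) had an adjusted p of 0.27. THRB, a thyroid hormone receptor, had a change of 0.22 with an adjusted p of 0.72.

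Energy and growth genes were spread around 0. Of 14 genes of glycolysis and glucose supply 8 were higher, with a median of 0.057. SLC16A1, which carries lactate and ketone bodies, had a change of 0.42 with an adjusted p of 0.33, and the glycolytic enzyme ALDOA of 0.48 with one of 0.48. ATP5PD, a subunit of ATP synthase, had a change of 0.36 with an adjusted p of 0.57, in a list of 10 respiration genes whose median was 0.050. Of 14 lysosome genes 10 were higher, with a median of 0.071, and CTSD, a lysosomal protease, had a change of 0.18 with an adjusted p of 0.67. Of 34 growth factor genes none was called, with IGFBP4 at -0.45 and BMP6 at 0.60, whose adjusted p-values were 0.24 and 0.29. Single members of lowest p in other lists were PLAU at -0.27, AQP3 at 0.32 and SKP1 at -0.35, with adjusted p-values of 0.37, 0.27 and 0.37. Of 9 immediate early genes 5 were higher and none was called, with EGR1 at 0.31 and CCN2 at 0.40. Of 13 apoptosis and survival genes 10 were lower, with a median of -0.17, and of 20 hypoxia and vascular growth genes 12 were lower, with a median of -0.10. Of the 34 lists with a gene tested, 32 held no called gene.

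Most called transcripts, 5 of those higher and 13 of those lower, are known only by an accession. EE828192 had levels of 10.69, 10.87, 11.40 and 10.81 at 130 d and of 9.56, 9.42, 9.69 and 9.82 at 145 d. Its change of -1.32 (SE 0.19), 2.5-fold, was the largest called, and it passed under each of the 22 settings run, the reported one included. EE863725 had levels of 12.82, 12.95, 13.73 and 12.96 at 130 d and of 11.73, 11.78, 12.09 and 12.09 at 145 d, with a change of -1.19 (SE 0.16). EE858717 had levels of 10.20, 10.45, 10.31 and 10.86 at 130 d and of 11.37, 11.44, 11.98 and 11.64 at 145 d, with a change of 1.15 (SE 0.23). FE022039 had levels of 9.63, 9.57, 9.31 and 9.65 at 130 d and of 10.83, 10.98, 10.75 and 10.16 at 145 d, with a change of 1.14 (SE 0.22). The adjusted p-values of EE863725, EE858717 and FE022039 were 0.0022, 0.040 and 0.023. In a fit of the 8 arrays alone EE863725 had an adjusted p of 0.062, and over the 22 settings it passed under 20, with one up to 0.064. The adjusted p of EE858717 was 0.089 with the processed signal, and that of FE022039 was 0.099. EE858717 passed under 12 of the 22 settings, with an adjusted p up to 0.23, and FE022039 under 15, with one up to 0.11. Both rises were sensitive to single arrays. The call of EE858717 was lost without any 1 of the 8 arrays except 130 d replicate 4, and that of FE022039 without 130 d replicate 1, 2 or 3 or 145 d replicate 1, 2 or 3, while the changes were between 1.03 and 1.31.

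The other ages put this interval in the course of gestation. SLC1A2 had mean levels of 7.02, 7.14, 7.79, 7.90, 8.48 and 8.44 (SD 0.041 to 0.17, n = 4) from 80 d to 1 d after birth. YBX1 had means of 16.33, 16.40, 16.02, 14.99, 14.09 and 13.96 (SD 0.13 to 0.27), and RACK1 had means of 16.50, 16.49, 16.18, 15.73, 15.08 and 15.12. The 145 d and newborn means of these genes lay within their spread. CD93 took another course, with means of 8.05, 8.13, 8.25, 8.73, 7.67 and 7.69 (SD 0.094 to 0.44), highest at 130 d. PECAM1 had means of 9.66, 9.83, 10.04, 10.13, 9.53 and 9.58. From 145 d to 1 d after birth SLC1A2, CD93, YBX1 and RACK1 differed by -0.035, 0.015, -0.13 and 0.046, with adjusted p-values of 0.96 or more.

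**Figure D5:**
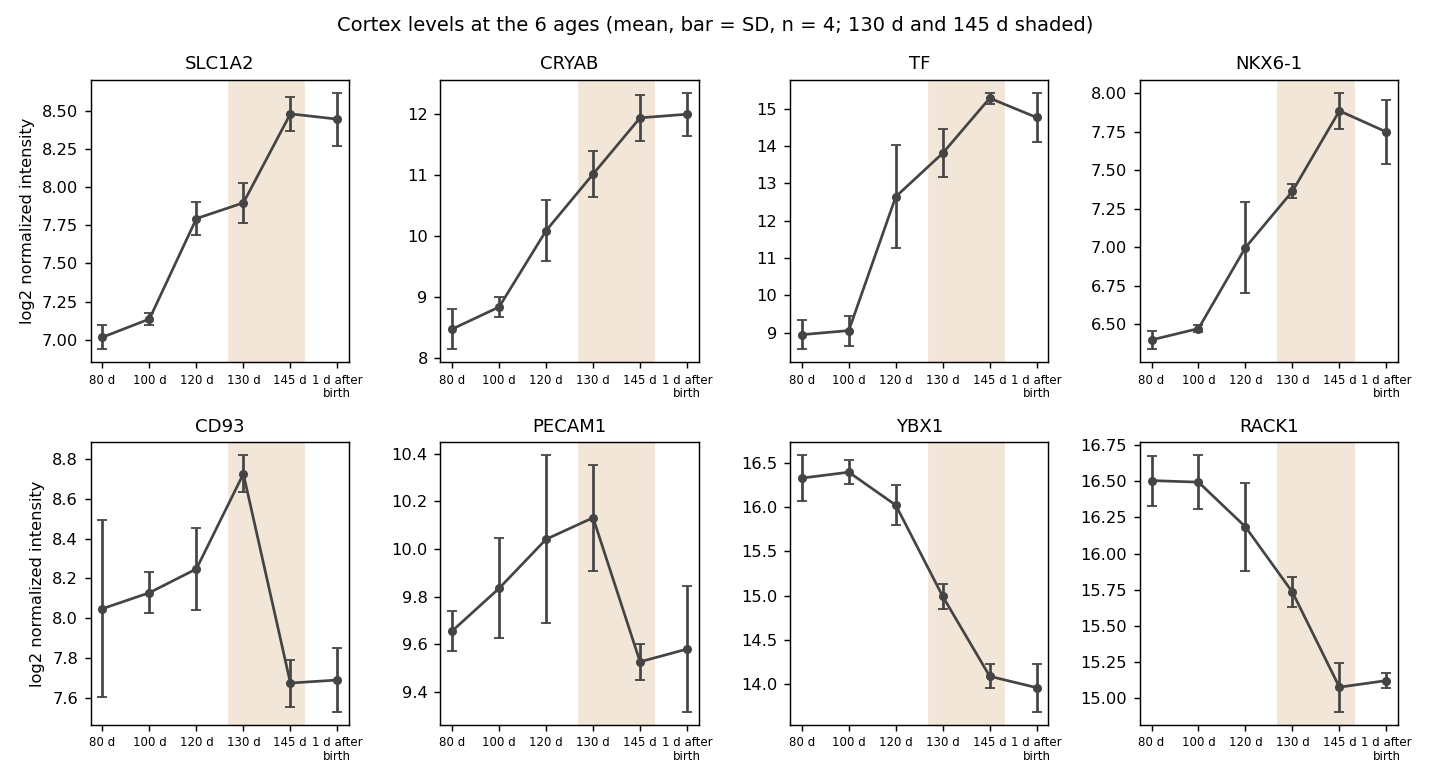
Mean log2 normalized intensity in cortex by age, from 80 to 145 d of gestation and then in the lamb at 1 d, with SD (n = 4), for 8 genes. The interval from 130 d to 145 d is shaded. CD93 has its highest mean at 130 d (8.73) and falls to 7.67 at 145 d, whereas YBX1 falls from 16.02 at 120 d to 14.99 and then 14.09.

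Whether the change from 130 d to 145 d differed from that of the interval before it, 120 d to 130 d, was tested as the difference of the 2 changes, which share the 130 d arrays. Of the genes tested 4 passed, or 0.0315%, and 907 had an unadjusted p under 0.05. CD93 was the only one with a symbol, with a change of 0.48 before 130 d, -1.05 after it and a difference of -1.53 (SE 0.26), adjusted p 0.035. Its rise before 130 d was not itself called, with an adjusted p of 0.105. Without 130 d replicate 1, 2 or 4, or 145 d replicate 3 or 4, 1 gene passed, and without 145 d replicate 2, 2 genes did. With the processed signal 0 passed, with 944 at an unadjusted p under 0.05.

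The same interval was set against the other regions in a fit over all 95 arrays, by testing whether the change from 130 d to 145 d differed between cortex and each of them. By limma 0 genes (0%) passed against brainstem, 0 (0%) against hypothalamus and 0 (0%) against hippocampus. An unadjusted p under 0.05 was seen for 108 of 12950, 208 of 13254 and 324 of 13070 genes tested. Each count is below the share of 0.05 expected if no gene differed, so the test may be too strict. That 0 genes passed does not show that the regions changed alike. In simulated data the fit over all arrays called 36 of 100 differences of 1 between cortex and brainstem, and 82 of 100 differences of 2. The simulated noise of a gene had the same spread in every group. In the data spreads differed, as for CD93 at 145 d, with an SD of 0.12 in cortex and 0.73 in brainstem. The simulated shares may therefore not hold for the data. Genes that did not pass may therefore still differ between regions. In fits of the cortex and 1 other region alone 0 also passed, with 569, 506 and 209 at an unadjusted p under 0.05. In limma fits of each other region by itself, SLC1A2 had changes of 0.53 in brainstem, 0.52 in hypothalamus and 0.23 in hippocampus. Only that in brainstem passed, with an adjusted p of 0.0040, against 0.22 in hypothalamus. CD93 had changes of -0.79, -0.46 and 0.046 in the same order, and the difference between cortex and hippocampus was -1.10 (SE 0.39), adjusted p 1.00. YBX1 had changes of -0.39, -0.79 and -0.39, and RACK1 had changes of -0.20, -0.81 and 0.045. EE828192 had changes of -0.00070, -0.21 and -0.28, with a difference of cortex from brainstem of -1.32 (SE 0.64). In the fits of single regions none of the changes of CD93, YBX1, RACK1 and EE828192 passed.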

How the data were processed

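RNA from 95 ovine brain samples was measured on one-colour arrays. The authors scanned the arrays, and the deposited files hold each spot's mean intensity, local background intensity and processed signal (scanner software 10.1.1.1 by the file headers). The authors also deposited a table of normalized log2 values for 11138 probes, used here as an alternative. Each of its 95 columns correlated best with its own array.

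Background was removed by normexp with an offset of 50, and log2 values were quantile normalized over all arrays (limma 3.58.1, R 4.3.3). The offset narrows the changes of dim probes, and quantile normalization gives every array the same distribution. Spots with outlier marks were left out on their array. The 77 negative control spots set a limit on each array, 1.1 times their 95th percentile, and the 13244 probes that reached it on 4 or more cortex arrays were kept. Probes of a gene were averaged. Symbols were taken from the deposited files, by accession, gene identifier or synonym from RefSeq (ARS-UI_Ramb_v3.0), or from a list of aliases. Of 15008 probes 1656 have one, 171 of them by alias, 139 by gene identifier and 20 by synonym.

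All 6 cortex ages were fitted in limma (lmFit, eBayes) with Benjamini-Hochberg adjustment. Differences between regions were fitted over all 95 arrays. The fits were tested on simulated data. The samples, the 35 gene lists and the rule for named genes were chosen with earlier results of these data known. The rule names the genes with a symbol that passed, those of lowest p up to 10 in each direction, the called or lowest-p member of each list, immune genes the study follows, and the largest 2 changes in each direction among genes known only by an accession. The member so chosen from the apoptosis list is not reported. Members named beside them were chosen after their values were seen. Columns of the authors' comparisons were not present in the files used. Alternatives were another offset, the processed signal, each array scaled at the 75th percentile, the authors' table, other filters, the brightest or each single probe, other normalization sets, trend and robust settings, the replicate number and the slide as blocks, the 8 arrays alone, and leaving out each array. Fits without slide 3 and fits of 2 regions alone were added after seeing the data.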

Additional observations from a re-analysis of the deposited data

Results flagged for a closer look

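The change from 130 d to 145 d differed from that of the interval before it in 4 genes by the test of the difference. The differences were -1.53 for CD93, -1.84 for DY494282, -0.91 for DY511576 and 0.94 for FE024061. DY494282 rose by 0.96 before 130 d and fell by 0.88 after it, and FE024061 had changes of -0.57 and 0.37.

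In 9 of 144 groups of 4 arrays examined, 1 array stood apart from the others, and chance alone flags about 1 in 20 such groups. At 130 d these were BMP6 in replicate 3 at 8.19, with the next array at 8.48, CD1D in replicate 1 at 8.62 against 8.85, CSF3 in replicate 2 at 6.93 against 6.57, EE863725 in replicate 3 at 13.73 against 12.96 and GFAP in replicate 2 at 9.86 against 10.32. At 145 d they were CD247 in replicate 3 at 9.13 against 8.82, EGR1 in replicate 1 at 8.37 against 8.65, IL10 in replicate 3 at 7.4 against 7.16 and NOS2 in replicate 1 at 6.61 against 6.67.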

How the results depend on the processing

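The number of genes changed from 130 d to 145 d, 22, was 5 with the processed signal, 46 with the slide as a block, 12 at an adjusted p under 0.01, and 11 to 27 when single arrays were left out. Apart from the replicate block, it was 20 to 28 under the other settings. The 11 genes called without 130 d replicate 1 and the 14 without 145 d replicate 1 were all among the 22, and of the 20 called without the 3 arrays of slide 3, 10 were. The number of genes whose change differed from the interval before it, 4, was 0 with the processed signal, 2 with trend and robust settings and 1 to 4 when single arrays were left out. The 3 comparisons with other regions gave 0 genes under every setting run. For the pairing of replicate numbers, same-numbered arrays of the 2 ages correlated at 0.385, 0.103, -0.328 and 0.439 after the age means were removed. Replicates 1 and 4 shared a slide across the ages, and replicates 2 and 3 did not. These values therefore cannot show whether the numbers pair the samples. The fetuses of the 2 ages were different animals. With the replicate block 69 genes passed for the change and 5 for the difference from the interval before it, and 0 against each other region. Fits within a slide were planned for slides with over 1 array of both ages. No slide met that, and none was run. Of the values of named genes, the GLT-1 probe of SLC1A2 alone was reversed at -0.039, and NEFH at -0.0021 in the series table. Without single arrays NEFH ran from -0.027 to 0.081, CD81 from -0.041 to 0.13 and FCGR2B from -0.029 to 0.057. HBB passed with its brightest probe, PTGS2 without 145 d replicate 4, AQP3 without slide 3, and RPSA with the replicate block. The cause of these differences was not tested. The number of arrays limits the precision, and dim probes have their changes narrowed.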
